A study of Mus musculus with 12 samples.

Results

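The genes described here serve amino acid supply, the folate (one-carbon) cycle and the ATF4 stress response in mouse CD4+ T cells. They are 35 genes picked by symbol, 35 of the 11247 that the deposited RNA-seq tables of the study list in all. By role they comprise 7 amino acid transporters, 9 serine and folate enzymes, 7 genes of ATF4 and its stress response, 4 enzymes of proline and aspartate synthesis and 8 tRNA synthetases. Naive CD4+CD62L+ T cells from spleens of C57BL/6 mice aged 8 to 10 weeks were cultured for 3 d in 3 ways, with 4 libraries from independent cultures for each. Activated (Th0) cells received plate-bound anti-CD3 at 1 µg/ml and anti-CD28 at 1 µg/ml, and both polarized groups received these too. Th17 cultures had in addition IL6 at 30 ng/ml, TGFβ1 at 5 ng/ml, and neutralizing anti-IL4 and anti-IFNγ at 10 µg/ml each, with no IL2 added. Induced regulatory T (iTreg) cultures had IL2 at 10 ng/ml and TGFβ1 at 10 ng/ml according to the sample labels, whereas the study's methods name a higher TGFβ1 dose. Each polarized population is a mixture of cells that did and did not acquire the lineage, so that fewer cells of a type and less RNA per cell cannot be told apart in these bulk libraries.

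Activated T cells grow and divide within days and draw heavily on extracellular amino acids, which enter through carriers of the SLC family. Serine, taken up or made from a glycolytic intermediate, donates carbon units to folate, and folate passes them on to purine and thymidylate synthesis in a cycle that runs in parallel in the mitochondrion and the cytosol. When amino acids run short or the endoplasmic reticulum is stressed, phosphorylation of eIF2α favours translation of the transcription factor ATF4. ATF4 is known to bind C/EBP-ATF response elements in front of transporter, serine, proline, asparagine and tRNA synthetase genes. Much of the control of ATF4 is exerted on its translation, which mRNA levels do not record.

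The promoter sequences are shown for Asns, the usual example of an ATF4 target, and for the members that passed the test in a comparison below and hold either of 2 motifs. The windows come from RefSeq promoters of GRCm38.p6 and cover 250 bases before to 50 bases after each start site, in 300 bases. By gene symbol or gene ID, 29 of the 35 members matched a window. Slc7a5, Slc1a5, Slc38a1, Wars, Cars and Nars did not. The core of the C/EBP-ATF response element, TGATGNAA (TTNCATCA on the other strand), stood in the windows of 8 matched members (27.6%) against 3.97% of all 32851 windows. The 8 were Aars, Asns, Chac1, Gars, Got1, Pycr1, Slc7a11 and Trib3. The E-box CACGTG, which reads alike on both strands and is the motif of MYC and its relatives, stood in 3 (Aars, Aldh18a1 and Tyms, 10.3%) against 7.15% of all windows. A match is a description of these letters and no evidence of binding. The members include genes picked for their place in the ATF4 response, so no conclusion is drawn from their larger share. A member was counted if any of its windows held the motif, whereas the share of all is per window. The 250 bases before the start of Asns (chr6:7693210-7693459 on the minus strand), Chac1 (chr2:119350992-119351241 on the plus strand), Pycr1 (chr11:120643749-120643998 on the minus strand), Aldh18a1 (chr19:40588464-40588713 on the minus strand) and Tyms (chr5:30073626-30073875 on the minus strand) are printed 5′ to 3′ along each gene, with the matched motif in capitals.
Asns: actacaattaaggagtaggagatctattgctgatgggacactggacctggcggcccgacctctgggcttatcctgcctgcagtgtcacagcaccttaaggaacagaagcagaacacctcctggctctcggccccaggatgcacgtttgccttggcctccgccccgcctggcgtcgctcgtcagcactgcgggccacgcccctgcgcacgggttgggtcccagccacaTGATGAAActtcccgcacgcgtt
Chac1: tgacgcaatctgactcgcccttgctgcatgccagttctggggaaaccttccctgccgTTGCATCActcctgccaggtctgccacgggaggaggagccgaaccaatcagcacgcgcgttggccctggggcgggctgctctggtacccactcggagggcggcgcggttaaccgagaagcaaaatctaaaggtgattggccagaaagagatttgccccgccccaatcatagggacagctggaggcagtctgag
Pycr1: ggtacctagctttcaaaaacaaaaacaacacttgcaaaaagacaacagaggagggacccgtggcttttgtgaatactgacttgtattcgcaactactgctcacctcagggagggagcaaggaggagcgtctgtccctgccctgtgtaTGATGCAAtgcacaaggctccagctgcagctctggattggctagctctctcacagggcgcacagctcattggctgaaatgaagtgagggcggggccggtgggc
Aldh18a1: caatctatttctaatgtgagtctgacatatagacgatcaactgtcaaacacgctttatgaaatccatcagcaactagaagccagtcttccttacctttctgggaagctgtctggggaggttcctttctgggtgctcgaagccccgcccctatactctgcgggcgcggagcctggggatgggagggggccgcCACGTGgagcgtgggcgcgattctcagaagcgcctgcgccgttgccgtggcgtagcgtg
Tyms: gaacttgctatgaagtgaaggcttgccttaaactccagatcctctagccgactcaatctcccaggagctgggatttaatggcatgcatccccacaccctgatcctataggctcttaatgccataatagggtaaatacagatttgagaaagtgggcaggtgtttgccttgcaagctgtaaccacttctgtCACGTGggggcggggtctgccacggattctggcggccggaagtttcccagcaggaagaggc
In this orientation the motif begins 23 bases before the start of Asns, 193 before that of Chac1, 103 before that of Pycr1, 59 before that of Aldh18a1 and 61 before that of Tyms. The motif of Trib3 lies after its start, from base 15.

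Expression was deposited as FPKM, a read level scaled for transcript length and sequencing depth, in a table per comparison, and the tables were scaled separately. The values of the Th0 libraries in the iTreg table are 0.988 to 0.991 times those in the Th17 table. Each polarized group was therefore tested against Th0 within its own table, and no test was made between Th17 and iTreg. Both comparisons share the Th0 libraries. Steps in the lowest values placed 11 of the 12 libraries at 1 to 1.44 times the read depth of the first Th0 library, while total read numbers were not derived. Libraries are named by the headings of their columns, which begin M22, M29, M42 or M43 in every group. What a shared beginning stands for is not given, so the libraries were treated as unpaired, and library values below are listed in that order. The unpaired spread includes any difference that libraries of a shared beginning have in common, and a member that missed the threshold is not shown to be alike in the groups. The CD4 T cell markers Cd3e, Cd4, Thy1 and Cd28 summed to 304 to 873 FPKM in every library, and B cell, erythroid and CD8 T cell markers were listed below 7 FPKM or not at all. The T cell marker Trac was not listed either, so a marker that is not listed is not shown to be absent. By limma, Cd4 itself was lower in Th17 (log2 fold change -1.54, adjusted p = 0.0377). Cd28 was lower in iTreg without passing the test (-1.22, adjusted p = 0.0634). The Th17 marker Il17f stood at 281 to 788 FPKM in Th17 libraries and at 26.9 to 99.2 in iTreg libraries. Foxp3, the regulator of Treg cells, stood at 62.0 to 91.8 FPKM in iTreg libraries, but also at 42.5 FPKM in the Th17 library M43, against 0.499 to 4.50 in the other Th17 libraries. Nkg7, a gene of cytotoxic cells, was the only NK cell marker listed, at 6.58 to 58.8 FPKM in Th0, 0.302 to 3.28 in Th17 and 25.2 to 53.5 in iTreg libraries, and the myeloid markers Cd68 and Itgam summed to 3.34 to 5.03 FPKM in Th0, 5.58 to 16.5 in Th17 and, for Cd68 alone, 2.61 to 7.19 in iTreg libraries. Their part in the results was not tested.

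Amongst the members, 34 of 35 passed the filter on low values (above 1 FPKM in no fewer than 4 of 8 libraries) in each comparison. The exception was Slc7a11, the cystine carrier, at 0.159 to 0.221 FPKM in Th0, 0.284 to 0.473 in Th17 and 0.197 to 0.318 in iTreg libraries. Its Th17 and Th0 libraries did not overlap at this level, and its iTreg and Th0 libraries did. In Th17 cells, 3 members were up-regulated and 2 down-regulated (5 of 34, or 14.7%, at an adjusted p under 0.05 by limma on log2(FPKM + 1)). Of all 10269 genes tested in this comparison 19.3% were called, 10.6% up and 8.69% down, so the members' share was near the background. In iTreg cells, 6 members were up-regulated and 1 was down-regulated (7 of 34, or 20.6%), against 16.6% of all 10208 genes, 8.36% up and 8.21% down. Single libraries moved these counts. In Th17, 3 members were called without Th0 M22, Th0 M43 or Th17 M29, and 8 without Th17 M42. In iTreg, 3 were called without Th0 M22, Th0 M43, iTreg M22 or iTreg M29, 4 without Th0 M29, and 4 without both M42 libraries. Groups did not overlap for 7 members in Th17 (20.6%, against 23.8% of all genes) and for 9 in iTreg (26.5%, against 22.8%). Shmt2, Aldh18a1 and Chac1 were higher, and Mthfd1l lower, than in Th0 by limma in both comparisons. The median log2 fold change of the 34 members was 0.13 in Th17, where that of all genes was -0.0007, and 0.35 in iTreg, where that of all genes was 0.01. The median in Th17 fell to 0.0485 without Th0 M42, to 0.0503 without Th17 M29 and to 0.0706 without Th17 M22. Fold changes were positive for 20 of 34 members in Th17 (49.9% of all genes) and for 28 of 34 in iTreg (51.6% of all genes). The counts and medians describe the list and carry no test.

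**Figure D1:**
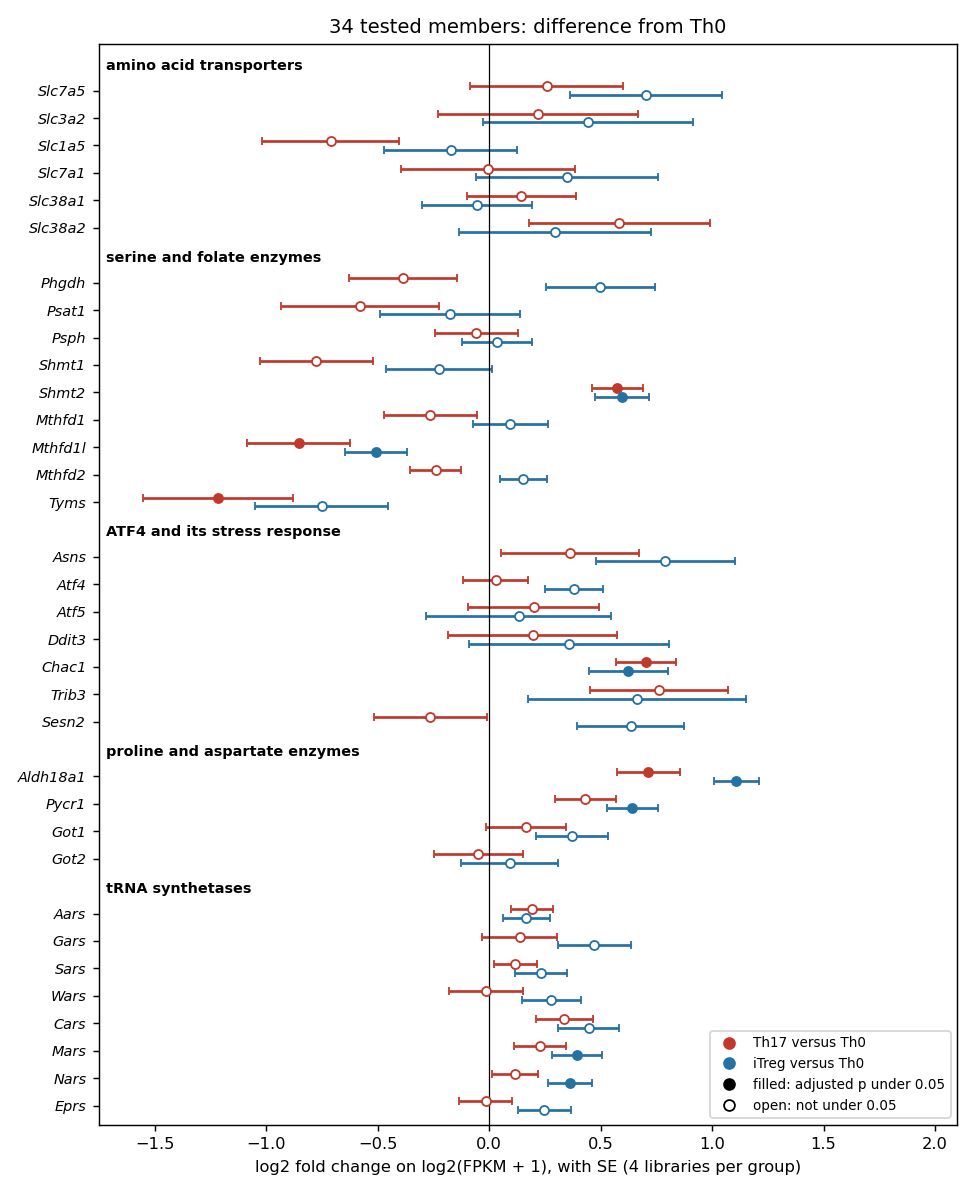
Log2 fold change on log2(FPKM + 1) with its SE (x axis) of the 34 tested members by role (y axis), for Th17 against Th0 in red and iTreg against Th0 in blue, 4 libraries per group; filled points have an adjusted p under 0.05. The filled points are those of Shmt2, Aldh18a1, Chac1, Mthfd1l and Tyms for Th17, and of Shmt2, Aldh18a1, Pycr1, Chac1, Mars, Nars and Mthfd1l for iTreg.

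No amino acid transporter passed the test in either comparison by limma with adjustment, against 19.3% of all genes in Th17 and 16.6% in iTreg. At an unadjusted p under 0.05 by limma, 1 of the 6 tested, Slc1a5, was lower in Th17, and none differed in iTreg. The share of all genes at this unadjusted level is not given. Counts at that level, here and below, therefore single out no role or list. The carriers had log2 fold changes of -0.71 to 0.58 in Th17 (median 0.18) and -0.17 to 0.70 in iTreg (median 0.32), and groups overlapped for each of these 6. Slc7a5 (chr8:121881150-121907694), the light chain of the LAT1 carrier of large neutral amino acids, had 49.5, 43.2, 27.8 and 63.6 FPKM in Th0, 57.1, 62.2, 27.7 and 79.3 in Th17, and 97.2, 76.6, 37.4 and 94.1 in iTreg libraries. Within each group the M42 library was the lowest, and the highest Th0 library exceeded the lowest of either polarized group. Each iTreg library was above the Th0 library of the same beginning, as was each Th17 library but M42. The unpaired test takes no account of shared beginnings. The log2 fold change of Slc7a5 was 0.26 ± 0.34 (SE) in Th17 (adjusted p = 0.651) and 0.70 ± 0.34 in iTreg (adjusted p = 0.205). Slc3a2, the heavy chain of LAT1, ranged from 26.3 to 83.6 FPKM in Th0, 30.9 to 96.4 in Th17 and 34.3 to 121 in iTreg. Slc1a5, the glutamine and neutral amino acid carrier ASCT2, had the highest mean FPKM of the members in Th0, at 181 ± 64.4 (SD, n = 4). It averaged 107 ± 27.5 in Th17 (log2 fold change -0.71 ± 0.31, adjusted p = 0.148) and 153 ± 35.9 in iTreg. Each Th17 library was below the Th0 library of the same beginning, as was each iTreg library but M42. Slc7a1, the carrier of cationic amino acids such as arginine, averaged 27.7, 27.4 and 35.5 FPKM in Th0, Th17 and iTreg. The sodium-coupled carriers Slc38a1 and Slc38a2 averaged 39.0 and 38.5 FPKM in Th0, 43.8 and 57.8 in Th17, and 37.8 and 47.5 in iTreg.

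The spread of the transporters within groups followed a recurring order. Of the 7 transporters, Slc7a11 included, the M42 library was the lowest of its group for 6 in Th0, for 7 in Th17 and for 6 in iTreg. The same M42 libraries were the highest of their group for 8 of 9 serine and folate enzymes in Th0, for 9 of 9 in Th17 and for 4 of 9 in iTreg. In Th0 the M29 library was the lowest for all 9 of these enzymes. Cd4 was also lowest in M42 in every group, at 81.3 FPKM in Th0 (209 to 283 in the others), 33.8 in Th17 (67.1 to 87.4) and 78.3 in iTreg (152 to 206), so the order was not confined to members. The cause was not tested. With both M42 libraries left out, a check chosen after seeing the data, Slc7a5 passed the test in iTreg (log2 fold change 0.79, adjusted p = 0.0375) and Slc1a5 in Th17 (-0.79, adjusted p = 0.0256). Slc7a5 also passed without iTreg M42 alone (adjusted p = 0.0427), and Slc1a5 without Th0 M42 alone (adjusted p = 0.0319).

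**Figure D2:**
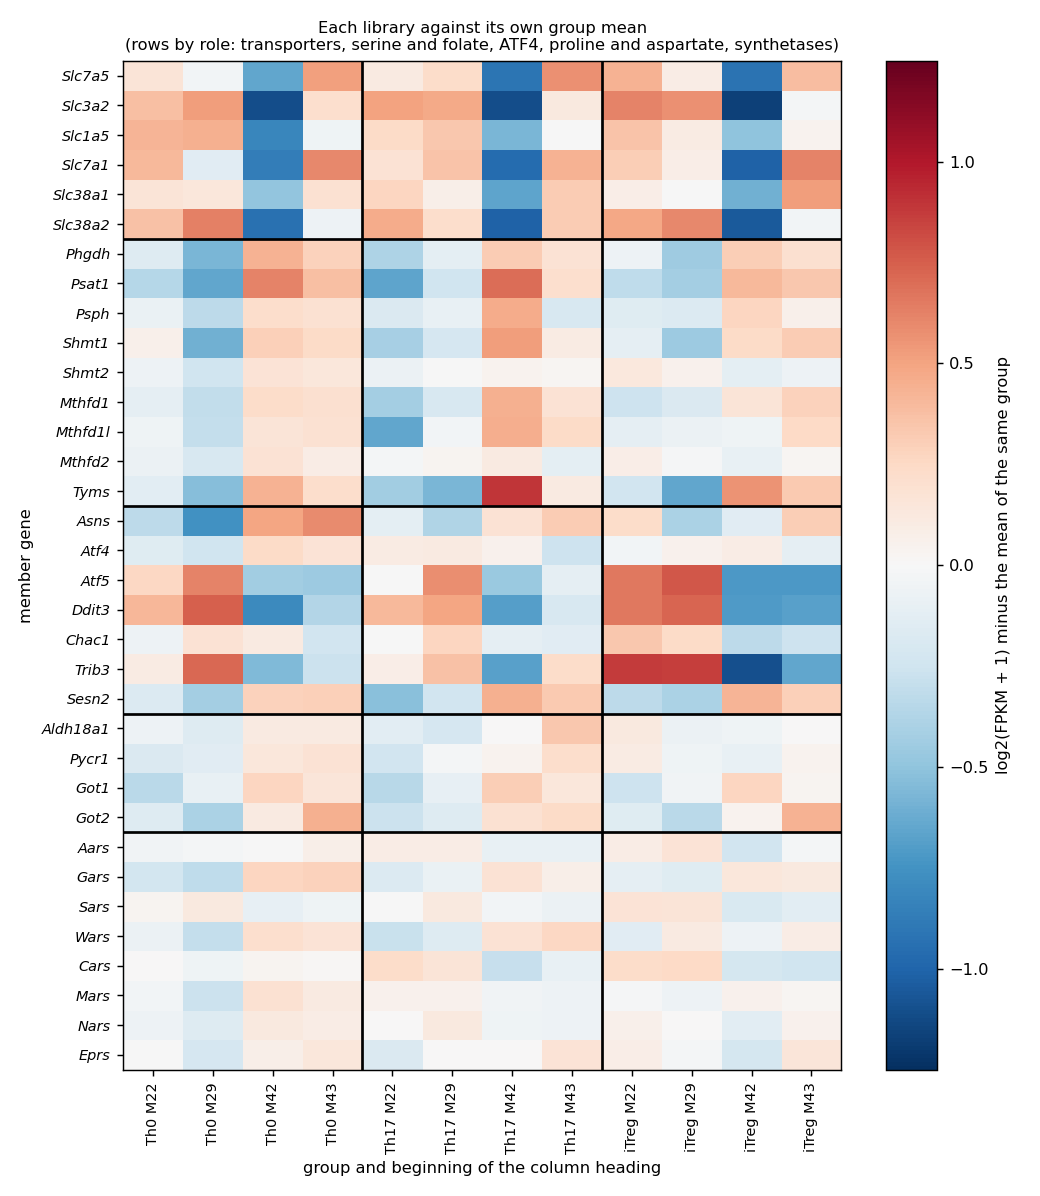
Deviation of each library from the mean of its own group in log2(FPKM + 1) (colour), for the 34 tested members (rows, by role) in the 12 libraries (columns, by group and beginning of the heading); red is above and blue below the group mean. Deviations ran from -1.17 to 0.897, and the M42 columns are blue over the transporters in each group and red over the serine and folate enzymes in Th0 and Th17.

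In the serine and folate pathway the mitochondrial serine hydroxymethyltransferase passed the test in both comparisons and the cytosolic one in neither. Shmt2 (chr10:127517123-127522444), the mitochondrial enzyme that takes the carbon unit from serine, had 80.0, 70.5, 94.3 and 92.9 FPKM in Th0, 119, 125, 129 and 128 in Th17, and 138, 130, 116 and 120 in iTreg libraries. Every polarized library exceeded every Th0 library. It was up-regulated in Th17 (log2 fold change 0.58 ± 0.12, adjusted p = 0.0090) and in iTreg (0.60 ± 0.12, adjusted p = 0.0105). Both calls held when any single library was left out, with adjusted p up to 0.0323 in Th17 and 0.0396 in iTreg. Shmt1, the cytosolic counterpart, averaged 48.3 ± 12.4 FPKM in Th0, 27.9 ± 8.39 in Th17 and 40.5 ± 9.69 in iTreg (SD, n = 4). It did not pass the test in Th17 (log2 fold change -0.77 ± 0.25, adjusted p = 0.0644) or in iTreg (-0.22 ± 0.24, adjusted p = 0.595). Without Th0 M29 (adjusted p = 0.0192) or Th17 M42 (adjusted p = 0.0263) it passed in Th17. The ratio of Shmt2 to Shmt1, looked at after their values were seen and given with no test, was 1.62, 2.31, 1.62 and 1.67 in Th0, 5.96, 5.38, 3.30 and 4.40 in Th17, and 3.77, 4.55, 2.46 and 2.42 in iTreg libraries. The ratio was higher in each Th17 and iTreg library than in any Th0 library.

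**Figure D3:**
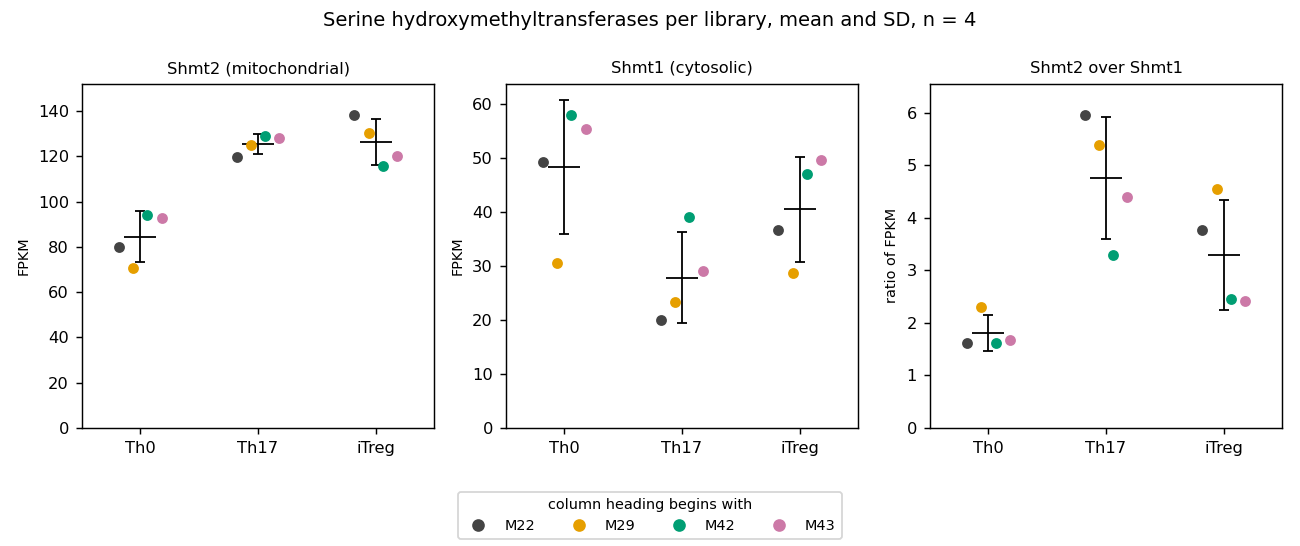
FPKM of Shmt2 and Shmt1 and the ratio of their FPKM (y axes) per library in the 3 groups (x axis); points are libraries coloured by the beginning of the heading, and bars give the mean and SD (n = 4). The Shmt2 values of the groups do not overlap with Th0, those of Shmt1 do, and the ratio averages 1.81 in Th0, 4.76 in Th17 and 3.30 in iTreg. Th0 values are those of the Th17 table.

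Mthfd1l (chr10:3973118-4167081), the mitochondrial enzyme that releases formate to the cytosol, moved the opposite way to Shmt2. It had 38.2, 32.0, 44.3 and 45.3 FPKM in Th0, 13.3, 20.9, 29.7 and 25.4 in Th17, and 25.1, 25.8, 26.2 and 32.5 in iTreg libraries. All Th17 libraries lay below all Th0 libraries, while the highest iTreg library was above the lowest Th0 library. It was down-regulated in Th17 (log2 fold change -0.85 ± 0.23, adjusted p = 0.0333) and in iTreg (-0.51 ± 0.14, adjusted p = 0.0365, exact permutation p = 0.0571). These calls depended on single libraries. The first was lost without any of 4 libraries (Th0 M22, M42 or M43, or Th17 M29, adjusted p up to 0.0941), and the second without any of 6 (all Th0 libraries but M29, or iTreg M22, M29 or M42, up to 0.104), and also without both M42 libraries (0.167). Mthfd2, which precedes it in the mitochondrial branch, averaged 72.5 ± 8.58 FPKM in Th0, 61.0 ± 4.14 in Th17 (adjusted p = 0.184) and 79.5 ± 4.19 in iTreg (adjusted p = 0.387). Mthfd1, which carries out these steps in the cytosol, averaged 41.8, 35.2 and 44.3 FPKM.

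Tyms (chr5:30058202-30073617), thymidylate synthase, which uses folate carbon for DNA synthesis, was down-regulated in Th17. It had 30.1, 22.6, 45.2 and 38.8 FPKM in Th0, 9.82, 8.89, 26.3 and 14.8 in Th17, and 15.9, 11.8, 28.6 and 24.2 in iTreg libraries. The Th17 library M42 was above the Th0 library M29, so the groups overlapped. The log2 fold change was -1.22 ± 0.34 in Th17 (adjusted p = 0.0352, exact permutation p = 0.0571) and -0.75 ± 0.30 in iTreg (adjusted p = 0.129). Without any of 6 libraries (Th0 M22, M42 or M43, or Th17 M22, M29 or M43) the call in Th17 was lost, with adjusted p up to 0.102, and the last of these is the library with Foxp3 at 42.5 FPKM. A processed copy of the gene, Tyms-ps, is annotated, and its effect on the counted reads was not tested.

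The 3 enzymes that make serine did not pass the test. Phgdh, which commits a glycolytic intermediate to serine, has an annotated processed copy (Phgdh-ps1) and averaged 127 ± 37.8 FPKM in Th0, 94.8 ± 20.4 in Th17 (log2 fold change -0.39 ± 0.24, adjusted p = 0.311) and 174 ± 38.4 in iTreg (0.50 ± 0.25, adjusted p = 0.213). Psat1, the aminotransferase that follows, averaged 105, 69.8 and 89.1 FPKM, with a spread in Th0 from 62.6 to 152. Psph, the phosphatase of the last step, averaged 30.8, 29.8 and 31.1 FPKM, and Cct6a overlaps 10.4% of its exonic bases. Over the whole role, 8 of 9 genes had negative fold changes in Th17, Shmt2 being the exception (median -0.39), while 5 of 9 were positive in iTreg (median 0.03). In Th17, 1 of the 9 was called up and 2 down (33.3%, against 19.3% of all genes). In iTreg 1 was called up and 1 down (22.2%, against 16.6%). The calls of Mthfd1l and Tyms amongst these depended on single libraries.

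Amongst ATF4 and its stress response, Chac1 alone passed the test, in both comparisons. Chac1 (chr2:119351229-119354381) encodes a glutathione-degrading enzyme, and its promoter window holds a match to the motif core printed above. It had 3.06, 3.81, 3.58 and 2.59 FPKM in Th0, 5.85, 7.27, 5.38 and 5.24 in Th17, and 7.18, 6.64, 4.17 and 4.41 in iTreg libraries. Every polarized library exceeded every Th0 library at this low level. The log2 fold change was 0.70 ± 0.14 in Th17 (adjusted p = 0.0073) and 0.62 ± 0.18 in iTreg (adjusted p = 0.0443), on a scale where the added 1 FPKM understates changes of low genes. The Th17 call held without any single library (adjusted p up to 0.0269). The iTreg call was lost without any of 6 (each Th0 library, or iTreg M22 or M29, adjusted p up to 0.114), without both M42 libraries (0.0575) and with limma's trend (0.0509).

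Atf4 (chr15:80255184-80257541) itself was amongst the most highly expressed members, with 139, 130, 182 and 174 FPKM in Th0, 169, 170, 164 and 132 in Th17, and 195, 207, 212 and 184 in iTreg libraries. The Th17 and Th0 values overlapped, whereas each iTreg library lay above each Th0 library. The difference did not pass the test in Th17 (log2 fold change 0.03 ± 0.15, adjusted p = 0.914) or in iTreg (0.38 ± 0.13, adjusted p = 0.0802). The direction in Th17 turned under median centring (-0.0065). Asns (chr6:7675169-7693254), asparagine synthetase, had 13.2, 9.52, 24.1 and 25.9 FPKM in Th0, 20.1, 16.6, 24.9 and 27.5 in Th17, and 34.7, 22.1, 26.6 and 36.8 in iTreg libraries. Its Th0 values covered a wide range that overlapped both polarized groups, and neither difference passed the test (0.36 ± 0.31, adjusted p = 0.464 in Th17, and 0.79 ± 0.31, adjusted p = 0.128 in iTreg).

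The remaining members of this role spread widely within groups. Trib3, a pseudokinase induced by ATF4, stood at 33.2 and 33.0 FPKM in iTreg libraries M22 and M29 but at 7.74 and 10.9 in M42 and M43, against 7.12 to 18.6 in Th0. Ddit3, the transcription factor CHOP, stood at 89.6 and 94.2 FPKM in the first pair and at 34.3 and 35.02 in the other, and Atf5 at 34.8 and 37.8 against 12.8 and 12.8. In Th17 these genes averaged 19.9, 53.8 and 23.9 FPKM. The order was not confined to iTreg. Ddit3 stood at 59.6 and 75.2 against 25.2 and 34.2 in Th0, and at 67.7 and 72.2 against 31.2 and 44.1 in Th17. Atf5 stood at 24.1 and 31.2 against 14.5 and 14.3 in Th0, and at 23.0 and 34.9 against 16.5 and 21.2 in Th17. Trib3 kept this order in Th0 but not in Th17, where M43 (22.6) exceeded M22 (20.4). The cause was not tested. Trib3 passed the test in Th17 only without Th0 M29 (adjusted p = 0.0390) or Th17 M42 (adjusted p = 0.0398), against 0.125 with all libraries. Sesn2, a leucine-binding inhibitor of mTORC1, averaged 30.1 ± 7.39 FPKM in Th0, 25.3 ± 8.03 in Th17 and 47.2 ± 13.9 in iTreg (log2 fold change 0.63 ± 0.24, adjusted p = 0.114). All 7 fold changes of the role were positive in iTreg (median 0.62) and 6 of 7 in Th17 (median 0.20). The 1 call in each is 14.3% of the role, against 16.6% of all genes in iTreg and 19.3% in Th17.

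Proline synthesis from glutamate held the largest called increase of the members. Aldh18a1 (chr19:40550257-40588463), the enzyme of its first steps, had 28.5, 26.5, 32.2 and 32.4 FPKM in Th0, 45.2, 42.6, 49.8 and 62.8 in Th17, and 70.6, 61.5, 62.2 and 64.9 in iTreg libraries. Both polarized groups were well apart from Th0, with the lowest Th17 library above the highest Th0 library. Its Th17 and iTreg libraries overlapped, with Th17 M43 (62.8) above iTreg M29 (61.5). It was up-regulated in Th17 (log2 fold change 0.71 ± 0.14, adjusted p = 0.0078) and in iTreg (1.11 ± 0.10, adjusted p = 0.00019). Without any single library, adjusted p stayed at or under 0.0281 and 0.00159. Pycr1 (chr11:120635712-120643769), which completes proline in the mitochondrion, had 0.779, 0.830, 1.22 and 1.29 FPKM in Th0, 1.30, 1.67, 1.80 and 2.17 in Th17, and 2.36, 2.01, 1.94 and 2.22 in iTreg libraries. Its groups did not overlap in either comparison, but it was near the filter on low values. It was up-regulated in iTreg (log2 fold change 0.64 ± 0.11, adjusted p = 0.0057, up to 0.0243 without a single library) and did not pass the test in Th17 (0.43 ± 0.14, adjusted p = 0.0583), where a pseudocount of 0.1 gave an adjusted p of 0.0451. The aspartate aminotransferases did not pass the test. The cytosolic Got1 averaged 38.0, 42.8 and 48.7 FPKM in Th0, Th17 and iTreg, and the mitochondrial Got2 86.0, 82.1 and 90.3. Another annotated gene overlaps 9% of the exonic bases of Got2, and a processed copy, Got2-ps1, is annotated.

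The tRNA synthetases, which load amino acids onto their tRNAs, had small fold changes. None of the 8 passed the limma test in Th17, where 1 had an unadjusted p under 0.05 (log2 fold changes -0.02 to 0.34, median 0.13). In iTreg 2 passed (25.0%, against 16.6% of all genes), and all 8 fold changes were positive (0.17 to 0.47, median 0.32). Mars (chr10:127296221-127311786), the methionine enzyme, had 45.4, 38.4, 52.9 and 50.2 FPKM in Th0, 56.7, 56.5, 52.9 and 52.0 in Th17, and 59.8, 57.8, 62.9 and 61.6 in iTreg libraries. Nars, the asparagine enzyme, had 79.2, 74.0, 89.99 and 88.2 FPKM in Th0, 89.7, 97.5, 86.1 and 85.9 in Th17, and 110, 106, 96.2 and 110 in iTreg libraries. For both genes each iTreg library exceeded each Th0 library, while Th17 libraries overlapped with Th0. The log2 fold changes in iTreg were 0.39 ± 0.11 for Mars (adjusted p = 0.0459) and 0.36 ± 0.10 for Nars (adjusted p = 0.0376). These calls were close to the threshold. That of Mars was lost without any of 7 single libraries, all but Th0 M42 (adjusted p up to 0.108), and that of Nars without any of 6, all but Th0 M42 and iTreg M42 (up to 0.106). Median centring gave 0.0927 and 0.0706, and leaving out both M42 libraries 0.0882 and 0.0568. With a pseudocount of 0.1 Mars had 0.0530. Cars, the cysteine enzyme, averaged 22.9 ± 0.627 FPKM in Th0, 29.4 ± 4.91 in Th17 (adjusted p = 0.105) and 31.6 ± 6.13 in iTreg (adjusted p = 0.0575), with no overlap with Th0 in either. It passed in Th17 without Th17 M42 (0.0312) and in iTreg without iTreg M43 (0.0442). Gars, the glycine enzyme, averaged 91.0, 98.7 and 123 FPKM, Aars 62.5, 71.6 and 69.9, Sars 74.5, 80.9 and 87.2, Wars 28.7, 28.5 and 34.4, and Eprs 63.2, 62.5 and 74.4, in Th0, Th17 and iTreg. Of the exonic bases of Aars, 15.1% are shared with other annotated genes.

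**Figure D4:**
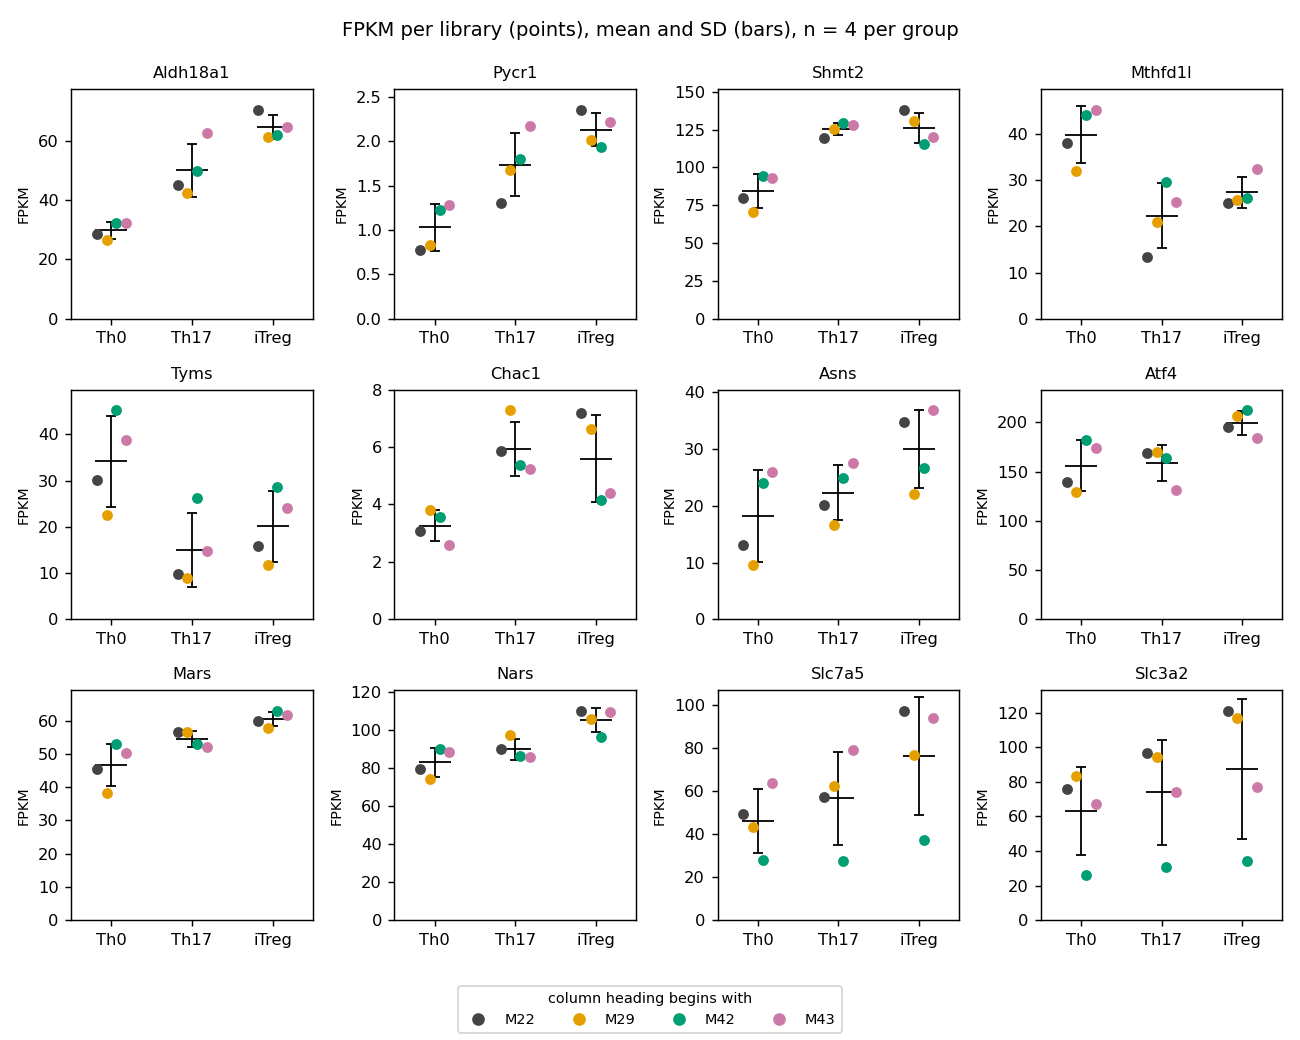
FPKM (y axes, from 0) per library in Th0, Th17 and iTreg (x axes) for the 8 members called in a comparison and for Asns, Atf4, Slc7a5 and Slc3a2; points are libraries coloured by the beginning of the heading, bars give the mean and SD (n = 4), and Th0 values are those of the Th17 table. Aldh18a1 averages 29.9, 50.1 and 64.8 FPKM in Th0, Th17 and iTreg. Its Th17 and iTreg points overlap each other and lie above all Th0 points. The M42 points are the lowest of each group for Slc7a5 and Slc3a2.

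Other genes of these pathways were read from lists chosen with earlier results known. Of 10 other amino acid transporters tested, 2 were up-regulated in each comparison and none down. They were Slc16a10, an aromatic amino acid transporter, at 5.16 ± 1.45 FPKM in Th0 and 23.9 ± 1.47 in Th17 (log2 fold change 2.04, adjusted p = 6.0e-05; 1.52 in iTreg, adjusted p = 0.0023), and Slc43a2, a carrier of large neutral amino acids (1.29, adjusted p = 0.0056, and 1.12, adjusted p = 0.0113). Of 18 further folate, purine and methionine cycle genes tested in Th17, none was called by limma and 5 had an unadjusted p under 0.05, all lower. Counts at this unadjusted level, here and in the next paragraph, have no share of all genes beside them and single out no list. In iTreg, 2 of 19 were up-regulated (10.5%, against 16.6% of all genes). They were the folate carrier Slc19a1 (0.98, adjusted p = 0.0240) and Gcsh, a subunit of the glycine cleavage system (0.94, adjusted p = 0.0134). Amongst 12 other cytosolic synthetases none was called by limma in Th17 (3 at an unadjusted p under 0.05). Yars (0.45, adjusted p = 0.0305) and Iars (0.41, adjusted p = 0.0491) were up-regulated in iTreg (16.7%, against 16.6% of all genes). Amongst mitochondrial synthetases, Aars2 was up-regulated in Th17 (0.64, adjusted p = 0.0310) and Pars2 down-regulated in iTreg (-0.46, adjusted p = 0.0265). None of 12 genes of glutamine, branched-chain, arginine and proline metabolism was called by limma in either comparison, with 3 in Th17 and 2 in iTreg at an unadjusted p under 0.05. Leaving out single libraries ended the calls of Aars2 (Th17 M22 or M29, or Th0 M42 or M43), Pars2 (Th0 M22 or M42, or iTreg M22, M42 or M43), Slc19a1 (iTreg M22 or M43), Yars (all but both M42 libraries) and Iars (all but Th0 M43). Median centring also ended those of Yars (adjusted p = 0.0509) and Iars (0.0837), a pseudocount of 0.1 that of Iars (0.0562), and leaving out both M42 libraries those of Iars (0.106), Pars2 (0.132) and Aars2 (0.0718). Those of Slc16a10, Slc43a2 and Gcsh held without any single library.

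Calls were also made amongst genes that control the stress response and amino acid sensing. Of the stress genes 18.75% were called in Th17 and 17.65% in iTreg, and of the sensing genes 17.65% and 11.76%. Of all genes 19.3% and 16.6% were called. Eif2ak3, the eIF2α kinase PERK of the endoplasmic reticulum, was up-regulated in Th17 (log2 fold change 1.36, adjusted p = 0.0332, groups overlapping, lost without any of 6 libraries, all but Th0 M29 and Th17 M42) and in iTreg (1.68, adjusted p = 0.0112). In Th17, the stress sensor Ern1 was also up-regulated (0.94, adjusted p = 0.0132) and Atf3 down-regulated (-1.42, adjusted p = 0.0133), so 2 of 16 genes were called up and 1 down. In iTreg, 3 of 17 were called up and none down. Nupr1, a small stress-induced nuclear protein, had 1.48, 0.202, 0.341 and 0.507 FPKM in Th0 and 164, 73.1, 141 and 140 in iTreg libraries (6.32, adjusted p = 1.0e-05), and Cebpb, a partner of ATF4 at its response element, averaged 7.18 and 17.4 FPKM (1.14, adjusted p = 0.0057). Of 17 genes of mTORC1, amino acid sensing and MYC, 3 were up-regulated in Th17 and 2 in iTreg by limma, with none called down. At an unadjusted p under 0.05, 4 were higher in Th17 with none lower, and in iTreg 3 were higher and 4 lower. Rragd, a Rag GTPase, was amongst them in both (1.17, adjusted p = 0.0075, and 1.05, adjusted p = 0.0105), with Sesn3 (1.20, adjusted p = 0.00011) and Rptor (0.43, adjusted p = 0.0180, lost without Th0 M22, without Th17 M22 or without both M42 libraries) in Th17. Myc, which drives growth of activated T cells, averaged 63.5 ± 15.4 FPKM in Th0 and 130 ± 13.4 in iTreg (1.05, adjusted p = 0.0055).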

How the data were processed

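RNA from 12 cultures was sequenced by the authors as paired-end reads. They mapped reads with TopHat 2.0.14 to mm10, counted them over exons without strand in union mode with HTSeq, and kept genes above a low count-per-million limit. The deposited values are FPKM. For the way the authors computed FPKM, and for the annotation, nothing is given in the sources used here. The deposited tables also hold the authors' pair-wise edgeR comparison (fold change, mean abundance, likelihood ratio, p-value and FDR), which was not used. Counting without strand and discarding reads of overlapping genes can lower genes that share exons.

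FPKM were tested with limma 3.58.1 (R 4.3.3) on log2(FPKM + 1), for genes above 1 FPKM in at least 4 of 8 libraries, separately in each table, with Benjamini-Hochberg adjustment over all tested genes at 0.05. The fit was also run on simulated data, the outcome of which is not reported here, and no result above rests on it. Exact permutation tests were two-sided over 70 arrangements, whose smallest p is 0.029. Alternatives were a pseudocount of 0.1, no filter, a robust trend, median centring and leaving out libraries. Depth relative to the first Th0 library was read from steps in low values. FPKM tables give no read totals, so no counting interval is printed. Positions are from GENCODE vM21 (GRCm38, the build of mm10). Members and lists were chosen with earlier results of these data known. All members were described by role. Library values were printed for those past the threshold and for Atf4, Asns and Slc7a5, and from other lists at most 3 called genes per comparison, by size of change. A result of these lists is not reported here.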

Additional observations from a re-analysis of the deposited data

Results flagged for a closer look

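In 4 of 105 gene and group combinations of the members, 1 library lay far from the other 3 by Dixon's criterion, which chance alone does in about 1 in 20. Slc38a1 stood at 26.8 FPKM in the Th0 library M42, with the others at 42.3 to 43.8. Psph stood at 40.8 FPKM in the Th17 library M42, with the others at 25.4 to 27.4. Atf4 stood at 132 FPKM in the Th17 library M43, with the others at 164 to 170. Mthfd1l stood at 32.5 FPKM in the iTreg library M43, with the others at 25.1 to 26.2. Outside the members, Sesn3, a regulator of mTORC1, lay above Th0 in every Th17 library (log2 fold change 1.20) and below it in every iTreg library (-0.34). The lower level in iTreg did not pass the limma test (adjusted p = 0.0785), and the difference between Th17 and iTreg was not tested.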

How the results depend on the processing

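No paired analysis was possible by the experiment numbers of the sample labels, because the headings of the deposited columns do not carry them. The shared beginnings of the headings were not taken as pairs, and a fit paired by them was not run. The authors' own comparison was pair-wise. The M42 library was the lowest of its group for 6 of 7 transporters in Th0, 7 in Th17 and 6 in iTreg. Whether members that missed the threshold would pass in a paired fit was not tested. The median log2 fold change of the members stayed positive under every alternative run, at 0.0485 to 0.133 in Th17 and 0.242 to 0.372 in iTreg without a single library. The number of members called ranged without a single library from 3 to 8 in Th17 and from 3 to 6 in iTreg, and without both M42 libraries, an alternative chosen after seeing the data, it was 6 in Th17 and 4 in iTreg. Of all genes, 1218 to 2083 were called in Th17 without a single library (1983 with all) and 994 to 1477 in iTreg (1691 with all), with the lowest counts without Th17 M22 and iTreg M22, and 869 in iTreg without both M42 libraries. Directions turned only for members that were not called. Without a single library, log2 fold changes in Th17 ran from -0.29 to 0.32 for Slc7a1, -0.15 to 0.59 for Slc3a2, -0.022 to 0.36 for Slc38a1, -0.0546 to 0.12 for Atf4, -0.0701 to 0.44 for Ddit3, -0.21 to 0.0167 for Psph, -0.18 to 0.10 for Got2, -0.11 to 0.0807 for Wars and -0.0873 to 0.044 for Eprs. In iTreg they ran from -0.23 to 0.15 for Slc38a1, -0.0159 to 0.65 for Slc38a2, -0.13 to 0.37 for Atf5, -0.0744 to 0.11 for Psph, -0.39 to 0.0317 for Psat1, -0.0069 to 0.18 for Mthfd1 and -0.0546 to 0.24 for Got2. Atf4 in Th17 was -0.0065 under median centring, and without both M42 libraries Slc7a1 was 0.0279 and Eprs 0.0061 in Th17. The causes were not tested.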
